A study of Homo sapiens with 6 samples.

Results

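The enzymes that make purine nucleotides from small precursors were followed in a neuroblastoma cell line in which MYCN could be switched on. The 10 genes PPAT, GART, PFAS, PAICS, ADSL, ATIC, IMPDH1, IMPDH2, GMPS and ADSS2 were taken for their place in the pathway, by a rule that uses no measured value. All 10 were present among the 60651 genes of the files, and all 10 were among the 29086 genes that passed the filter on low counts (at least 10 counts in at least 3 libraries). Across the 6 libraries each enzyme had between 2252 counts (IMPDH1) and 41110.5 counts (PAICS) per library.

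The parental line, SK-N-AS, was established from a human neuroblastoma and lacks MYCN amplification. The cells used here, SK-N-AS TR-MYCN, carry a stably introduced MYCN gene under a promoter held off by the tetracycline repressor (TR), and were kept as single clones under G418 and blasticidin, so that both groups share the construct, the repressor and the selection. The MYCN-induced group (labelled Tet, n = 3) received 2 µg/ml tetracycline. The control group (labelled ETOH, n = 3) was the same cell model without induction, and both were sequenced at 120 h (5 d). The paper describes a control treatment for the uninduced cells. The label ETOH reads as ethanol, but the sources used here do not state what the controls received. Only the induced group received tetracycline, and no cells without the MYCN construct were treated with it here. Effects of the drug itself and of MYCN therefore cannot be told apart in any difference between the groups. Ribosomal RNA was removed before the total RNA was sequenced in read pairs, and the study describes its replicates as biologically independent experiments. Since bulk RNA was measured, fewer cells of one kind and less RNA per cell cannot be told apart.

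Purine rings are assembled step by step on a ribose phosphate, which enters as phosphoribosyl pyrophosphate (PRPP). PPAT, GART, PFAS, PAICS, ADSL and ATIC carry the assembly to inosine monophosphate (IMP), with glycine, glutamine, aspartate, carbon dioxide and formyl groups from folate as building blocks. From IMP the pathway forks: IMPDH1 or IMPDH2 and then GMPS lead to guanosine monophosphate (GMP), while ADSS2 and again ADSL lead to adenosine monophosphate (AMP). Proliferating tumor cells draw on this route for DNA, RNA and energy carriers, and several of its genes are textbook targets of the MYC family, whose proteins bind the E-box CACGTG.

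The promoters of PPAT, PAICS and ATIC are shown first because they hold that E-box. Windows from 250 bases before to 50 bases after an annotated start (RefSeq, GRCh38.p14) were found for 8 of the 10 enzymes, and not for ADSL and IMPDH2. PPAT and PAICS lie head to head on chromosome 4, with 125 bases between their starts in the files. Their windows overlap by 236 bases and share a single E-box at chr4:56435792-56435797, which lies 182 bases upstream of the PPAT start and 40 bases downstream of a PAICS start. The window of PPAT (chr4:56435566-56435865, minus strand) and that of ATIC (chr2:215311809-215312108, plus strand) are given 5′ to 3′ on the strand of the gene, with each CACGTG in capitals:
PPAT: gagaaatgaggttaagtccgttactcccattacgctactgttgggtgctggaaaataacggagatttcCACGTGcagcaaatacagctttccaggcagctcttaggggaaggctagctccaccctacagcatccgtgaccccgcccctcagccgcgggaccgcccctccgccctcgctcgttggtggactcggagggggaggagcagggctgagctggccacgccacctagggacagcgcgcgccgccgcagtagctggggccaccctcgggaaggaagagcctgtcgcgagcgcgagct
ATIC: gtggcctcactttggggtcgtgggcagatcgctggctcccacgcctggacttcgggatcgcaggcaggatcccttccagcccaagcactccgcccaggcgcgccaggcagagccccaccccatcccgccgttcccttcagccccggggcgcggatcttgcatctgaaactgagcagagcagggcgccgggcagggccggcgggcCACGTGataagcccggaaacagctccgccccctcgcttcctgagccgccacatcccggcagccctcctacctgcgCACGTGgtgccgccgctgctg
ATIC held 2 copies, 46 bases upstream and 29 bases downstream of its start. CACGTG is its own reverse complement, so that 1 search covers both strands. It was present for 3 of the 8 enzymes, against 7.26% of all 35116 windows, 8.78% of all 27305 genes with a window and 11.5% of the 13434 such genes that were tested. The related sequence CACGCG, searched on both strands, was present for PFAS and ADSS2, 2 of the 8, against 20.4% of the tested genes with a window. These matches describe the letters in the windows, and binding of MYCN was not analysed here.

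The libraries held between 64500589 and 102249336 counted read pairs, and levels are given as CPM, the counts scaled to library size with TMM normalization factors. MYCN was expressed at 30.3, 35.5 and 32.4 CPM in control replicates 1, 2 and 3 and at 211, 221 and 199 CPM in the induced libraries (log2 fold change 2.68, standard error 0.08, adjusted p = 4.155e-05, edgeR). Every induced library lay far above every control, as the labels state. Over all tested genes 298 were called higher (1.02%) and 692 lower (2.38%) at an adjusted p under 0.05. MYCN-induced replicate 3 lay apart on the first principal component (44.8% of the variance), at 69.1 against 14.4 and 13.1 in the other induced libraries and -40.3 to -25.9 in the controls, so results are also given without it. Of the neuroblastoma markers, the 8 adrenergic genes summed to 908 to 1287 CPM in control cells and to 907 to 1102 CPM after induction, and the 8 mesenchymal genes to 496 to 519 and 562 to 611 CPM, with CD44 at 0 in every library. Of 8 markers of blood, epithelial, endothelial and liver cells, the 4 that passed the count filter summed to at most 3.57 CPM in any library. The others, KRT5, PECAM1, HBB and CD3E (at 0 in every library), did not pass that filter.

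Among the 10 enzymes, only IMPDH2 passed the test after MYCN induction, and it fell. None was called higher (0 of 10, against 1.02% of all tested genes), and 1 of 10 was called lower (against 2.38%). At an unadjusted p under 0.05, 2 were higher (ATIC and ADSS2; 8.13% of all tested genes) and 1 was lower (10.6%), while DESeq2 called ATIC higher (1 of 10, against 3.11% of all genes) and IMPDH2 lower (1 of 10, against 4.12%). The other 9 enzymes all had a log2 fold change above 0 (49.9% of all tested genes did), from 0.02 to 0.31, and the median of the 10 was 0.15 (all tested genes 0.00). Genes of at least the mean level of the least abundant enzyme (5439 genes) had a median of 0.05, and 62.9% of them were above 0. The values of the groups did not overlap for ATIC, ADSL and ADSS2, which were higher in all 3 induced libraries (3 of 10, against 11.5% of all tested genes and 21.8% of those 5439), and for IMPDH2, which was lower in all 3 (1 of 10, against 14.7% and 10.5%).

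**Figure D1:**
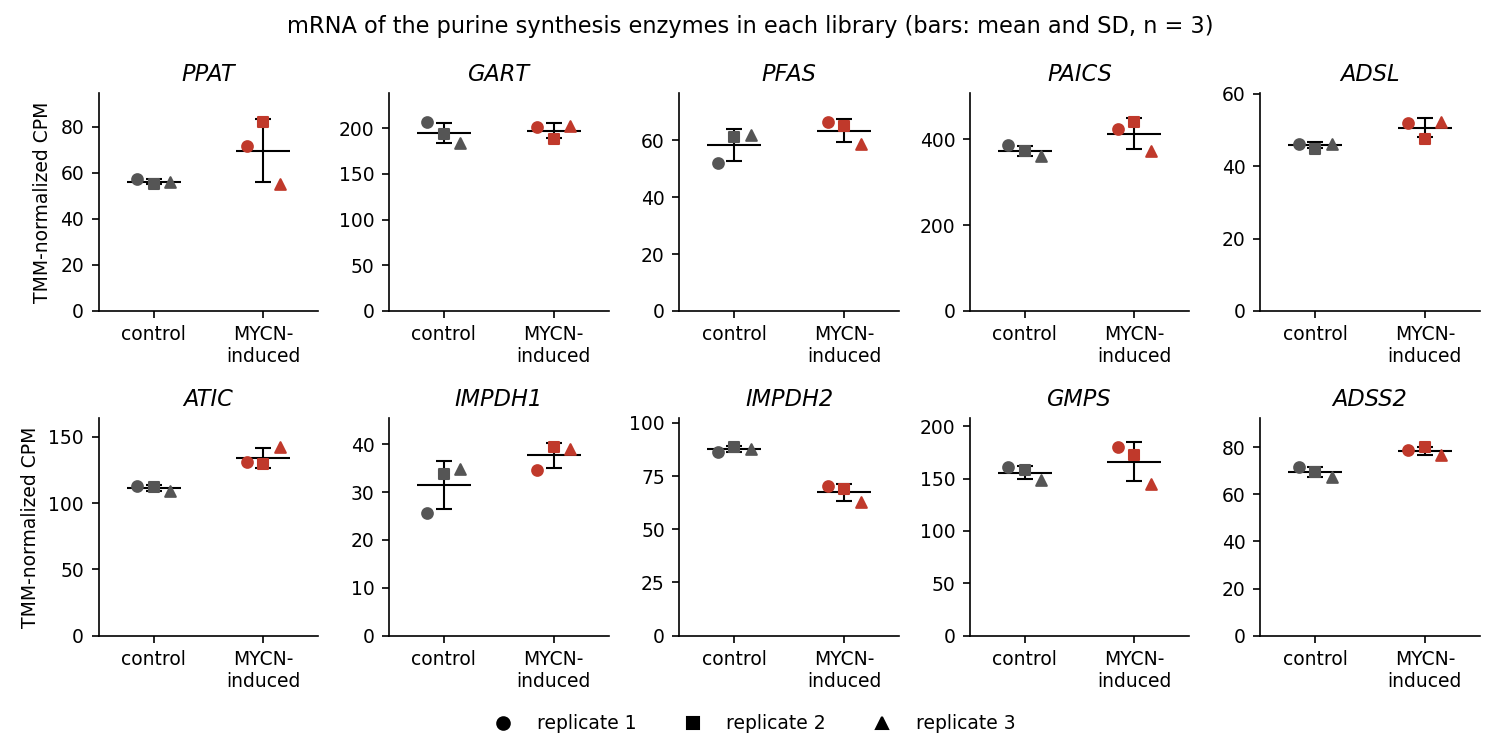
TMM-normalized CPM (vertical axes, each starting at 0) of the 10 purine synthesis enzymes in 3 control (grey) and 3 MYCN-induced (red) libraries; circles, squares and triangles are replicates 1, 2 and 3, and bars show the mean and SD (n = 3). The induced points of IMPDH2, at 62.9 to 70.5 CPM, lie below its control points, at 86.2 to 88.9 CPM, and the triangle is the lowest induced point for 6 of the 10 enzymes.

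PPAT transfers an amide group from glutamine to PRPP, the committed step of the pathway. The gene (ENSG00000128059.8) lies on chromosome 4 from 56393362 to 56435615, minus strand (GRCh38, as in the files). It was at 57.3, 55.2 and 55.8 CPM in control replicates 1, 2 and 3, and at 71.6, 82.1 and 54.9 CPM in induced replicates 1, 2 and 3. The controls were tight, induced replicates 1 and 2 lay above all of them, and induced replicate 3 lay below all of them. The means were 56.1 ± 1.07 and 69.6 ± 13.7 CPM (SD, n = 3 each), and the log2 fold change of 0.31 (standard error 0.13, 95% interval -0.0001 to 0.62) did not pass the test (adjusted p = 0.267, edgeR). Without induced replicate 3 it was 0.46 (adjusted p = 0.0119), past the threshold of 0.05, and without induced replicate 2 it was 0.17 (adjusted p = 0.504). A lncRNA on the opposite strand, ENSG00000270147, shares 121 of the 5439 exon bases of PPAT and moved by 0.26 (adjusted p = 0.431).

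GART, which joins 3 enzyme activities in 1 protein and takes up the first formyl group from folate, was the flattest of the 10. It lies on chromosome 21 from 33503931 to 33543491, minus strand. Its levels were 207, 193 and 184 CPM in control and 202, 188 and 203 CPM in induced libraries. The induced values all lay within the control range. The log2 fold change was 0.02 (95% interval -0.14 to 0.18, adjusted p = 0.917, edgeR), and its sign depended on the scaling.

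PFAS, which adds a further nitrogen from glutamine, is on chromosome 17 from 8247618 to 8270491, plus strand. It was at 51.9, 61.1 and 62.0 CPM in control and at 66.5, 64.9 and 58.8 CPM in induced libraries. Induced replicates 1 and 2 lay above every control, whereas induced replicate 3 fell between the controls. Its log2 fold change was 0.12 (95% interval -0.09 to 0.33, adjusted p = 0.541, edgeR), and 0.04 without control replicate 1.

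PAICS, the head-to-head neighbor of PPAT, carries out both the carboxylation and the aspartate step. It lies on chromosome 4 from 56435741 to 56464578, plus strand, and was the most abundant of the 10 on the CPM scale. Its levels were 386, 373 and 361 CPM in control and 425.5, 441 and 372.5 CPM in induced libraries. As for PPAT, induced replicate 2 was the highest and induced replicate 3 the lowest induced library, here among the controls. Between groups PAICS differed by 0.15 on the log2 scale (standard error 0.08, 95% interval -0.04 to 0.33), which did not pass the test (adjusted p = 0.381, edgeR). Without induced replicate 3 it was 0.22 (adjusted p = 0.0374).

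The neighbors PPAT and PAICS had the same order in the induced libraries. With the mean of the controls set to 0 on a log2 scale, PPAT was at 0.35, 0.55 and -0.03 in induced replicates 1, 2 and 3, and PAICS at 0.19, 0.24 and 0.00. The difference was larger for PPAT in the first 2 replicates and near 0 for both in replicate 3.

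ADSL removes fumarate both on the way to IMP and on the AMP branch, so it serves the pathway in 2 places. It lies on chromosome 22 from 40346461 to 40390463, plus strand. ADSL was at 46.3, 44.8 and 46.3 CPM in control and at 52.0, 47.6 and 52.3 CPM in induced libraries. Every induced library lay above every control on this scale, by a narrow margin in replicate 2. In TPM induced replicate 3 (6.13) lay below control replicate 1 (6.61). The log2 fold change of 0.15 (95% interval -0.01 to 0.30) did not pass the test (adjusted p = 0.303, edgeR). A readthrough gene on the same strand, ENSG00000284431, shares 11.1% of the exon bases of ADSL, and with the counts of both genes summed the log2 fold change was 0.13 (adjusted p = 0.353).

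ATIC, which adds the second formyl group and closes the ring to give IMP, had the smallest p-value among the 9 enzymes with a log2 fold change above 0. It lies on chromosome 2 from 215311956 to 215349773, plus strand. Its levels were 113, 112.5 and 109 CPM in control and 131, 129 and 143 CPM in induced libraries. On the CPM scale all induced libraries lay well above the controls, and here induced replicate 3 was the highest. In TPM induced replicate 3 was instead the lowest induced library (53.5, against 58.1 and 62.6 in induced replicates 1 and 2). There it lay just above control replicate 1 (51.6). The means were 111.5 ± 2.03 and 134 ± 7.32 CPM (SD, n = 3 each). This gave a log2 fold change of 0.27 (standard error 0.07, 95% interval 0.12 to 0.42), which missed the threshold after adjustment over all tested genes (adjusted p = 0.0738, edgeR). DESeq2 gave 0.28 (adjusted p = 0.0194), and edgeR without induced replicate 3 gave 0.23 (adjusted p = 0.0288), both past the threshold.

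IMPDH1 and IMPDH2 catalyze the same reaction, the oxidation of IMP that commits it to GMP and is the rate-limiting step of that branch. IMPDH2 is known as the form that proliferating cells mainly use. In these cells IMPDH2 fell, and IMPDH1 did not pass the test. IMPDH2 (ENSG00000178035.13) lies on chromosome 3 from 49024325 to 49029447, minus strand. It was at 86.2, 88.9 and 87.7 CPM in control replicates 1, 2 and 3, and at 70.5, 69.0 and 62.9 CPM in the induced libraries. The controls lay within a few CPM of each other and every induced library lay far below them, replicate 3 lowest. The means were 87.6 ± 1.31 and 67.5 ± 4.05 CPM (SD, n = 3 each), a decrease by 23.0% (log2 fold change -0.38, standard error 0.07, 95% interval -0.54 to -0.22, adjusted p = 0.0303, edgeR). DESeq2 gave an adjusted p of 0.00198. Without induced replicate 3 the log2 fold change was -0.32 (adjusted p = 0.0146), whereas without any 1 of the other 5 libraries the change of -0.40 to -0.37 had adjusted p-values of 0.0608 to 0.184. The annotated exons of IMPDH2 merge into 1 block over all 5123 bases of the locus, so read pairs from its introns were counted too. A lncRNA on the opposite strand, ENSG00000272434, shares 132 of these bases and moved by -0.29 (adjusted p = 0.210).

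IMPDH1 lies on chromosome 7 from 128392277 to 128410252, minus strand. It was at 25.6, 33.7 and 34.8 CPM in control and at 34.7, 39.5 and 38.9 CPM in induced libraries. Control replicate 1 was low, and induced replicate 1 fell just under the highest control, so that the groups overlapped on this scale. IMPDH1 had a log2 fold change of 0.27 (standard error 0.12, 95% interval -0.02 to 0.55, adjusted p = 0.304, edgeR), which became 0.13 without control replicate 1 (adjusted p = 0.558). IMPDH1 has 10 annotated pseudogenes, of which 8 had counts that together made 6.69% to 11.9% of those of IMPDH1, with IMPDH1P10 the largest. The file header describes counting of unique alignments, which would leave out pairs that fit the gene and a copy equally well, whereas the methods name an option that counts such pairs, so the value of IMPDH1 is uncertain to that extent.

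The balance of the isozymes was expressed as the ratio of IMPDH2 to IMPDH1 in TPM (counts per exon length, scaled to a fixed sum in every library). It was 2.41, 1.89 and 1.80 in control replicates 1, 2 and 3 and 1.45, 1.25 and 1.16 in induced replicates 1, 2 and 3. Every induced ratio lay below every control ratio. The mean log2 ratio differed by -0.65 (exact permutation test, two-sided, p = 0.1, the smallest value that 3 against 3 libraries allow). The difference is the same whatever transcript lengths are used, but the ratio itself is not: with the length of the canonical transcript it ran from 3.99 to 5.32 in control and from 2.56 to 3.22 in induced cells. Summed over both genes, the level was 119 ± 6.15 CPM (SD, n = 3) before and 105 ± 3.34 CPM (SD, n = 3) after induction.

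GMPS, which aminates xanthosine monophosphate to GMP, lies on chromosome 3 from 155870650 to 155944020, plus strand. It was at 161, 158 and 148.5 CPM in control and at 181, 173 and 145 CPM in induced libraries. Induced replicates 1 and 2 lay above every control, and induced replicate 3 lay below every control. The log2 fold change was 0.09 (95% interval -0.12 to 0.30, adjusted p = 0.643, edgeR), and without induced replicate 3 it was 0.19 (adjusted p = 0.0734), against 0.04 without induced replicate 1 and 0.06 without control replicate 3.

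ADSS2, which joins aspartate to IMP on the way to AMP, lies on chromosome 1 from 244408494 to 244451909, minus strand. Its levels were 71.6, 69.4 and 67.4 CPM in control and 78.6, 80.2 and 76.8 CPM in induced libraries. The 3 induced libraries lay close together and above all controls on this scale. In TPM induced replicate 3 (31.7) lay below control replicate 1 (36.0). The log2 fold change of 0.18 (standard error 0.06, 95% interval 0.03 to 0.32) missed the threshold after adjustment (adjusted p = 0.177, edgeR). A lncRNA on the same strand, ENSG00000240963, shares 157 exon bases with it and moved by 0.17 (adjusted p = 0.378).

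**Figure D2:**
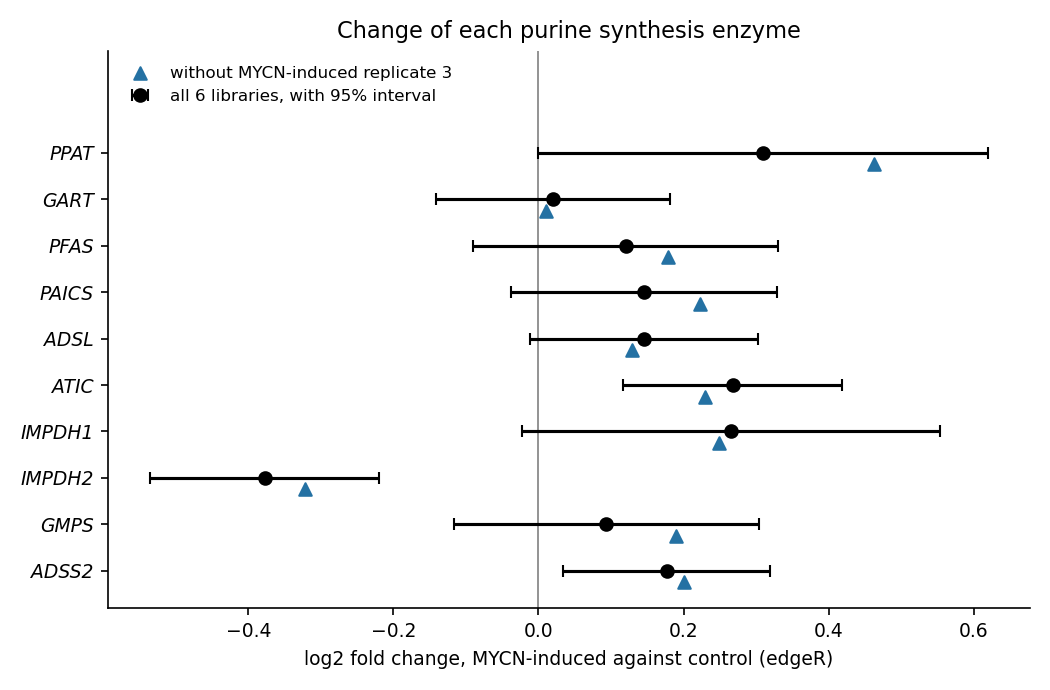
Log2 fold change of each purine synthesis enzyme, MYCN-induced against control (edgeR), with all 6 libraries (black circles, bars are 95% intervals) and without MYCN-induced replicate 3 (blue triangles). The interval lies entirely below 0 for IMPDH2 and entirely above 0 for ATIC and ADSS2, and PPAT moves from 0.31 to 0.46 without that library.

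Several of these differences changed when induced replicate 3 was left out. In CPM it was the lowest induced library for 6 of the 10 enzymes, and the number of enzymes above their control mean was 9, 8 and 6 in induced replicates 1, 2 and 3. In TPM it was the lowest induced library for each of the 10. Without it, PPAT, PAICS and ATIC were called higher (3 of 10, against 3.68% of all genes tested in that fit) and IMPDH2 lower (1 of 10, against 4.44%), and the median of the 10 was 0.20. These 3 are also the enzymes with a CACGTG in the windows described above, 2 of them sharing 1 copy. This match was seen after both results were known and was not tested, and it depends on the fit and the threshold. ADSS2, with no CACGTG in its windows, missed the threshold narrowly in this fit (adjusted p = 0.05048, edgeR), and IMPDH2 had no window. With all 6 libraries none of the 3 was called in edgeR, and PAICS (0.15) lay below IMPDH1 (0.27) and ADSS2 (0.18).

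Other gene lists moved with that library. The median log2 difference from the control mean was 0.19, 0.18 and 0.04 for the 10 enzymes in induced replicates 1, 2 and 3. For 20 proliferation genes it was 0.15, 0.20 and -0.45, with a summed level of 2681, 2806 and 1729 CPM against 2506 to 2544 CPM in control. Of these genes 0 were called (against 1.02% higher and 2.38% lower of all tested genes), with 0 at an unadjusted p under 0.05 and 0 with DESeq2. Without induced replicate 3, 4 were called higher (against 3.68% of all genes tested in that fit), and their median log2 fold change over the 20 genes was 0.16. For 12 genes of the integrated stress response the median log2 difference was 0.97, 0.40 and 3.06, with a summed level of 523, 443 and 1211 CPM against 294 to 318 CPM in control. Of these genes only ATF4 was called higher (against 1.02% of all tested genes), and 10 were higher at an unadjusted p under 0.05 (against 8.13%). DESeq2 called 6 higher (against 3.11%), and 6 were called higher without induced replicate 3 (against 3.68%). Induced replicate 3 was thus lowest in proliferation genes and highest in stress response genes, and the part of either in the values of the enzymes was not tested.

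**Figure D3:**
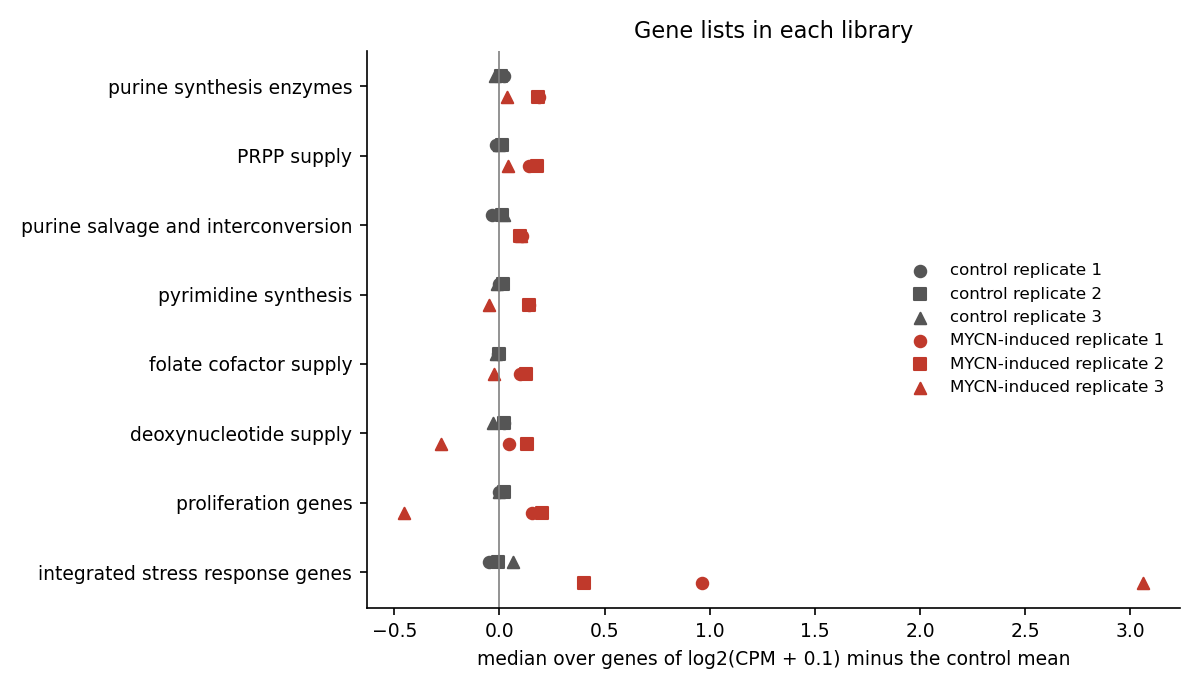
Median over the genes of each list of log2(CPM + 0.1) minus the control mean (horizontal axis), in 3 control (grey) and 3 MYCN-induced (red) libraries; circles, squares and triangles are replicates 1, 2 and 3. The induced triangle stands at 0.04 for the purine synthesis enzymes, at -0.45 for the proliferation genes and at 3.06 for the integrated stress response genes.

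The level of the enzymes was compared on the TPM scale, which takes the exon length of each gene into account. With the exon lengths of the files, PAICS led in control cells at 81.7 ± 6.84 TPM (SD, n = 3), followed by ATIC at 48.4 ± 3.23, GART at 41.4 ± 4.55 and ADSS2 at 33.2 ± 2.68 TPM. GMPS at 29.3 ± 2.61 TPM and IMPDH2 at 28.1 ± 1.18 TPM came next, and PPAT at 17.0 ± 1.14, PFAS at 14.8 ± 0.79, IMPDH1 at 14.0 ± 1.63 and ADSL at 6.21 ± 0.35 TPM closed the order. The highest was 13.2 times the lowest, and all stood between the 64.3 and 97.9 percentiles of the tested genes. Neighbors whose control ranges overlapped, and whose order is therefore not settled by the replicates, were ATIC and GART, ADSS2 and GMPS, GMPS and IMPDH2, and PFAS and IMPDH1. PPAT, the committed step, was thus expressed at a lower TPM than PAICS, with which it shares its promoter region.

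Most of this order was also seen after induction. PAICS stood at 91.1 ± 19.0 TPM and ATIC at 58.1 ± 4.55 TPM (SD, n = 3 each), still the 2 highest, and ADSL at 6.86 ± 0.63 TPM was again the lowest. IMPDH2 was at 21.8 ± 3.83 TPM, where its range overlapped those of GMPS above and PPAT below. IMPDH1 and PFAS changed places, with overlapping ranges in both groups. The order also depended on the gene length used: with canonical transcript lengths GART (79.8 TPM), PAICS (79.6 TPM), ATIC (76.7 TPM) and IMPDH2 (71.9 TPM) led in control, since the merged exons of IMPDH2 span 5123 bases and its canonical transcript 1651.

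**Figure D4:**
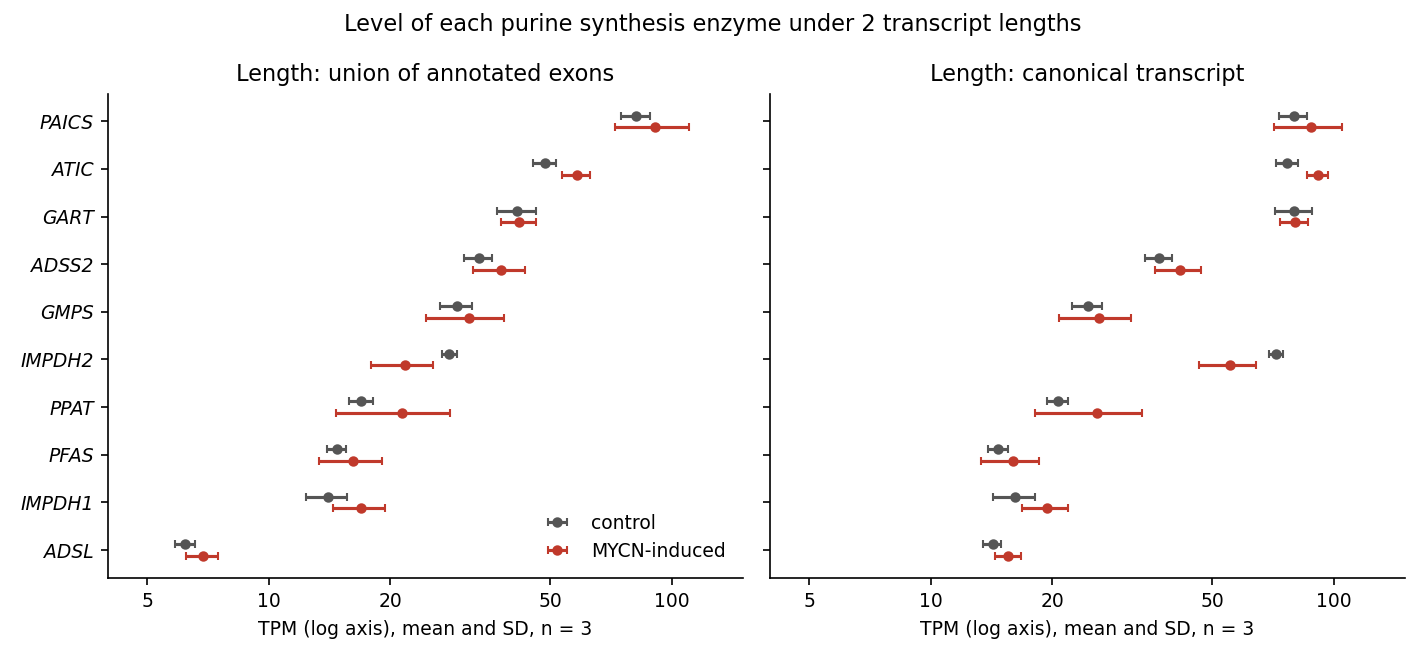
Level of each purine synthesis enzyme in TPM (horizontal log axis) with the merged annotated exons (left) or the canonical transcript (right) as gene length; points and bars are the mean and SD of 3 control (grey) and 3 MYCN-induced (red) libraries. IMPDH2 stands at 28.1 TPM in control on the left and at 71.9 TPM on the right, below the control in the induced group on both sides.

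Genes that feed the pathway or compete with it were examined from lists written for this work. In the PRPP supply (11 genes of the pentose phosphate route and PRPP synthetase) none passed the test in either direction, with a median of 0.16. At an unadjusted p under 0.05, 2 were higher and 0 lower (against 8.13% and 10.6% of all tested genes), and DESeq2 called 0. TKT, a transketolase of that route, was at 0.33 (adjusted p = 0.158), while PRPSAP1, a PRPP synthetase-associated protein, was at -0.10 (adjusted p = 0.537). Without induced replicate 3, PRPS2, 1 of the PRPP synthetases, was the only gene of the list that was called (0.42, adjusted p = 0.0253, edgeR). In that fit 3.68% of all tested genes were called higher.

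Purine salvage and interconversion, which recovers purine bases and nucleosides and balances the nucleotides, held 22 genes, of which 20 were tested (XDH had no counts and GDA too few). Of these, 2 were called higher and none lower (against 1.02% and 2.38% of all tested genes), and the median was 0.16. At an unadjusted p under 0.05, 5 were higher and 1 lower (against 8.13% and 10.6%), and DESeq2 called 4 higher (against 3.11%) and 0 lower. Without induced replicate 3, 5 were called higher and 1 lower in edgeR (against 3.68% and 4.44% of all genes tested in that fit). AK4, a mitochondrial adenylate kinase, was at 4.17, 3.86 and 3.50 CPM in control and at 7.50, 8.04 and 6.40 CPM in induced libraries (log2 fold change 0.93, standard error 0.13, adjusted p = 0.0126, edgeR). ADK, which turns adenosine into AMP, was at 18.3, 17.6 and 18.2 CPM in control and at 29.0, 29.2 and 24.4 CPM in induced libraries (0.61, standard error 0.09, adjusted p = 0.0173, edgeR). For both genes every induced library lay above every control, and induced replicate 3 was the lowest of the 3. ADSS1, the muscle-type counterpart of ADSS2, was at 4.66, 4.65 and 4.97 CPM in control and at 3.61, 3.45 and 4.08 CPM in induced libraries (-0.36, adjusted p = 0.142), and GMPR, which returns GMP to IMP, was at -0.26 (adjusted p = 0.329). All induced values of ADSS1 lay below its controls (as for 14.7% of all tested genes), opposite to ADSS2, and neither difference passed the test with all 6 libraries. Without induced replicate 3, ADSS1 was called lower (-0.42, adjusted p = 0.04698, edgeR), whereas ADSS2 was not called (0.20, adjusted p = 0.05048, edgeR).

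Folate cofactors carry the formyl groups that GART and ATIC use. Of 12 genes 11 were tested (ALDH1L1 was not), 2 were called higher and none lower (against 1.02% and 2.38% of all tested genes), and the median was 0.03. At an unadjusted p under 0.05, 3 were higher and 0 lower (against 8.13% and 10.6%). The calls were 2 and 0 with DESeq2 (against 3.11% and 4.12%), and 3 and 0 without induced replicate 3 (against 3.68% and 4.44%). MTHFD2, of the mitochondrial folate route, was at 58.5, 60.2 and 62.4 CPM in control and at 169, 118 and 302 CPM in induced libraries (1.70, standard error 0.30, adjusted p = 0.0278, edgeR). MTHFD1L, which releases formate from mitochondria, was at 16.3, 15.9 and 17.0 CPM in control and at 33.9, 25.8 and 52.8 CPM in induced libraries (1.19, standard error 0.23, adjusted p = 0.0374, edgeR). Both were highest in induced replicate 3 and above every control in all induced libraries. SHMT2, which feeds that route from serine, was at 1.27 but differed widely between induced libraries (72.2 to 229 CPM, adjusted p = 0.112), and without induced replicate 3 it was at 0.67 and was called (adjusted p = 0.0381). ALDH1L2, the lowest of the list, was at -0.22 (adjusted p = 0.591). MTHFD1, the cytosolic enzyme that makes the formyl folate, was at 0.03 (adjusted p = 0.853).

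The other nucleotide routes gave no call in edgeR with all 6 libraries. Of 8 genes of pyrimidine synthesis none passed the test, with a median of 0.11. At an unadjusted p under 0.05, 1 was higher (against 8.13% of all tested genes), and DESeq2 called 1 higher, UCK2 (against 3.11%). UCK2, which salvages uridine, was at 0.33 (adjusted p = 0.106), CMPK1 at 0.17 (adjusted p = 0.441), UMPS at -0.06 (adjusted p = 0.697) and UCK1 at -0.14 (adjusted p = 0.642). Without induced replicate 3, 3 of the 8 were called higher and 0 lower in edgeR (against 3.68% and 4.44% of all genes tested in that fit). These were UCK2 (0.42, adjusted p = 0.00747), CTPS1 (0.24, adjusted p = 0.0292) and CMPK1 (0.28, adjusted p = 0.04755). Of 6 genes that supply deoxynucleotides none passed the test with all 6 libraries, with a median of -0.08. The count was also 0 at an unadjusted p under 0.05, with DESeq2 and without induced replicate 3. RRM2B was at 0.16 (adjusted p = 0.396), DTYMK at 0.03 (adjusted p = 0.910), RRM2 at -0.19 (adjusted p = 0.715) and SAMHD1 at -0.20 (adjusted p = 0.290). RRM2, a subunit of ribonucleotide reductase, was at 159, 172 and 84.6 CPM in induced libraries against 155 to 162 CPM in control, and without induced replicate 3 its log2 fold change was 0.07.

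**Figure D5:**
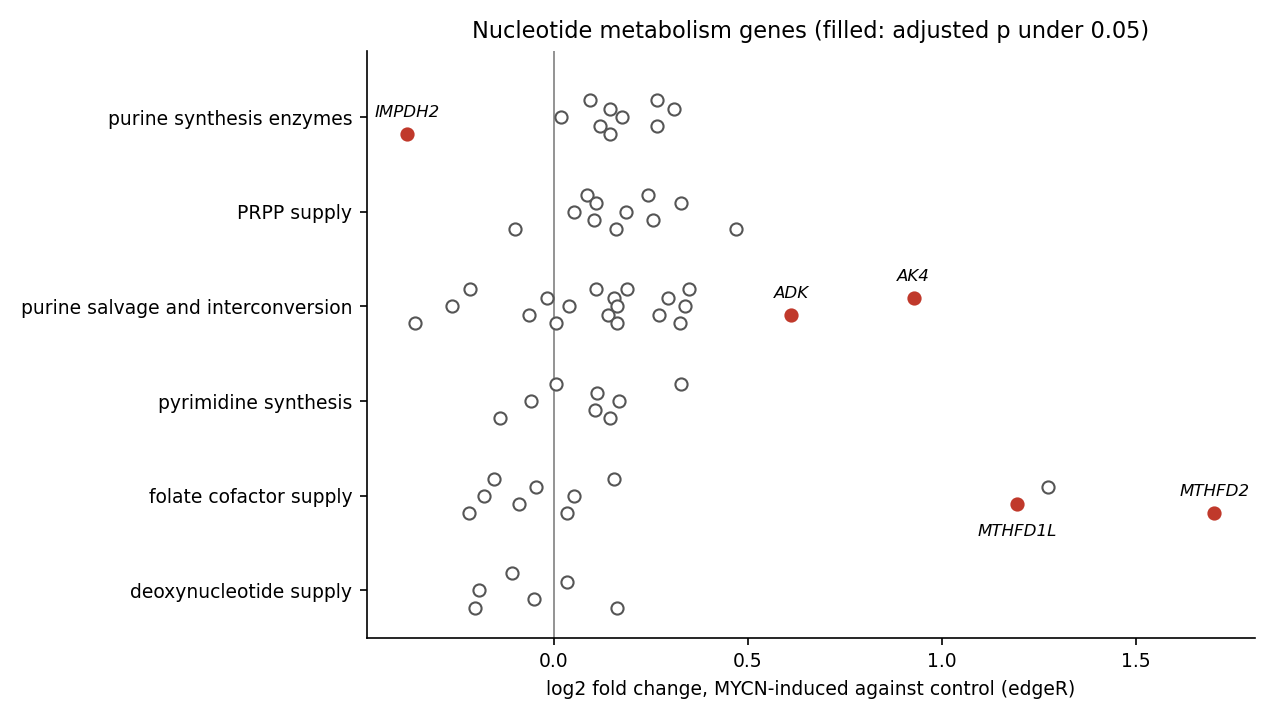
Log2 fold change (horizontal axis, edgeR, all 6 libraries) of each tested gene in the purine synthesis enzymes and 5 lists of nucleotide metabolism; filled red points have an adjusted p under 0.05 and are named, and the vertical scatter within a list carries no value. IMPDH2 at -0.38 is the only named point below 0, and ADK, AK4, MTHFD1L and MTHFD2 stand at 0.61, 0.93, 1.19 and 1.70.

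The common profile of the 10 enzymes over the 6 libraries was the mean of their centered log2 CPM. Pearson's r of each enzyme with that mean, which contains the enzyme itself, was 0.91 for PPAT, 0.90 for PAICS, 0.87 for ADSS2, 0.76 for PFAS, 0.75 for GMPS, 0.64 for ATIC, 0.61 for IMPDH1 and 0.54 for ADSL. GART at -0.10 and IMPDH2 at -0.69 did not follow it. Among 10147 other genes with a mean of at least 10 CPM, the 5 most like this profile were NCL, which encodes nucleolin of the nucleolus (r = 0.994), GOLM1 (0.994), PLAUR (0.993), PRPF4 of the spliceosome (0.992) and RNF130 (0.991). These r describe 6 libraries that share their depth and scaling factors, and none of the 5 genes passed the test between groups (log2 fold changes 0.13 to 0.31, adjusted p = 0.108 to 0.320, edgeR).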

How the data were processed

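Gene-level counts of 6 total RNA-seq libraries were analysed. Per the labels and the methods, the authors aligned reads to GRCh38 with STAR 2.7.1a and counted with featureCounts 1.5.1 with a strand option and with multiply aligned pairs included. Per the file headers, the deposited estimated counts came from featureCounts 1.6.4 on unique alignments, without a strand option and with pairs over several genes split in equal fractions, so that genes overlapping on opposite strands are uncertain. Between 31.9% and 33.4% of values above 0 were not whole. The 92 spike-in rows were at 0 in every library and were left out.

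The estimated counts were rounded, and genes reaching 10 counts in 3 or more libraries entered the test in edgeR 4.0.16 (R 4.3.3; TMM, quasi-likelihood test, Benjamini-Hochberg adjustment over all 29086 genes, threshold 0.05, biological coefficient of variation 0.153). The standard error is the log2 fold change divided by the square root of F. Names came from GENCODE release 44 (99.65% of identifiers matched), TPM from the deposited exon lengths. The scripts were tested on simulated counts. At this depth the spread between libraries, more than counting error, sets the precision. The p-values set each fold change against that spread, which the fit estimates with information shared over all genes.

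The enzymes, gene lists, named genes and tests were chosen with earlier results of these data known. Besides the enzymes and MYCN, the text names the called genes of each related list with its 2 largest rises and 2 largest falls, the 5 genes most like the enzymes, and genes or pseudogenes that may share their reads; other genes were named after their values were seen, and some genes that this rule selects are not reported here. Alternatives were library-size and upper-quartile scaling, DESeq2 1.42.0, 2 other count filters, the replicate block, leaving out each library, other scales, and, added after seeing the data, ADSL with its readthrough gene, protein-coding genes only and canonical transcript lengths. Circular RNA was not analysed here.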

Additional observations from a re-analysis of the deposited data

How the results depend on the processing

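The fall of IMPDH2 was called under some settings and not under others. Its log2 fold change was -0.41 with library sizes only (adjusted p = 0.0559) and -0.38 with the replicate block (adjusted p = 0.0567), leaving 0 enzymes called lower, and between -0.40 and -0.32 when each library was left out, with 0 to 1 called lower. The number called higher was 1 with DESeq2 (ATIC, 0.28) and 0 to 3 when each library was left out, 3 only without MYCN-induced replicate 3 (PPAT 0.46, PAICS 0.22, ATIC 0.23). Over all such fits PPAT ranged from 0.17 to 0.46, PAICS from 0.10 to 0.22 and ATIC from 0.23 to 0.29. GART turned to -0.01 with library sizes only and with upper-quartile scaling, and ranged from -0.02 to 0.06 when each library was left out. Those scalings moved the median of all genes by at most 0.03.

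In the related lists, DESeq2 called 4 salvage genes and 1 pyrimidine gene higher, and the filter of at least 100 counts in every library left 1 folate gene higher. When each library was left out, the numbers called higher were 0 to 5 in salvage, 0 to 3 in folate supply, 0 to 3 in pyrimidine synthesis and 0 to 1 in PRPP supply, and 0 to 1 salvage genes were called lower. The highest number came without MYCN-induced replicate 3 in each list, where 3.68% of all tested genes were called higher and 4.44% lower. With canonical transcript lengths the order in control was GART 1, PAICS 2, ATIC 3, IMPDH2 4, ADSS2 5, GMPS 6, PPAT 7, IMPDH1 8, PFAS 9 and ADSL 10. Over all genes, calls ranged from 18 higher and 72 lower without control replicate 2 to 1060 and 1279 without MYCN-induced replicate 3, and DESeq2 called 904 and 1199. The cause of these differences was not tested.

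Of the other 302 values, all kept their direction and their side of the threshold, or stayed within the spread or 1.5 times the count. Libraries of the same number correlated in their deviations from the group means at 0.22, -0.02 and 0.07, so the numbers were not treated as pairing the libraries. With the block, 265 genes were higher and 575 lower, and the IMPDH2 to IMPDH1 difference had a paired p of 0.25 (exact sign-flip test), the smallest possible.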
